A study of Mus musculus with 11 samples.

Results

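The livers of mice given AAV8 vectors for the intracellular domains of Notch1 or Notch2 were examined for 7 genes of the cholesterol synthesis pathway, which were Srebf2, Hmgcs1, Idi1, Fdps, Sqle, Lss and Insig1. The genes were taken by name, and their probes were found through the RefSeq accession that the array files give for each probe. The 7 genes had 9 probes in all, of 56605 probes and 22911 named genes on the array. Lss had 3 probes and each of the others had 1.

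Total liver RNA of male C57Bl6/J mice was measured on 11 one-colour Agilent arrays. The mice were 8 weeks old when injected intraperitoneally, and liver was taken on day 5. The total dose was 6e+11 viral genomes per mouse. In the GFP group (3 arrays) all 6e+11 were the vector for green fluorescent protein. The NICD1 group (3 arrays) received 3e+11 of the Notch1 intracellular domain vector with 3e+11 of the GFP vector, and the NICD2 group (3 arrays) received 3e+11 of the Notch2 intracellular domain vector with 3e+11 of the GFP vector. The NICD1&2 group (2 arrays) was given both NICD vectors, 3e+11 of each, without the GFP vector. The inserts were driven by the cytomegalovirus promoter, which is active in many cell types, so the construct itself did not restrict expression to hepatocytes. The labels did not state that each array was a separate mouse, so the p-values measure the spread between arrays, which may be partly technical.

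Cholesterol is built from acetyl units in the mevalonate pathway, and the liver is a main site of this synthesis. Srebf2 encodes SREBP-2, a transcription factor held in the membrane of the endoplasmic reticulum and released by proteolysis when sterols are low, after which it activates the genes of the pathway and its own gene. Insig1 encodes a protein that retains the SREBP complex in that membrane when sterols are high, and it is itself a target of SREBP. Hmgcs1 makes the HMG-CoA from which mevalonate is formed. Idi1 and Fdps act on the isoprenoid intermediates, Sqle oxidises squalene, and Lss closes the first sterol ring.

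The promoters of these genes are shown because the genes share a known regulator. RefSeq promoter windows of the GRCm38.p6 build, from 250 bases before to 50 bases after the start, were at hand for 5 of the 7 genes, and no window was used for Sqle and Fdps. The 150 bases before the gene of 4 of them follow, 5′ to 3′ on the plus strand. Capitals mark the core of the sterol regulatory element, CACCCCAC, and the inverted CCAAT box, ATTGG, on either strand.
Srebf2, chr15:82147119-82147268: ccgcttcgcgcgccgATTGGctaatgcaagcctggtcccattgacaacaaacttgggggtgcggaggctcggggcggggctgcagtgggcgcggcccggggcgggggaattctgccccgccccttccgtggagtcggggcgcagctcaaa
Hmgcs1, chr13:119690201-119690350: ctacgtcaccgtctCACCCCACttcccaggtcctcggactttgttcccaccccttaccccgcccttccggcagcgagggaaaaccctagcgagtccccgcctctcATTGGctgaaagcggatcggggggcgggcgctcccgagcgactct
Idi1, chr13:8885456-8885605: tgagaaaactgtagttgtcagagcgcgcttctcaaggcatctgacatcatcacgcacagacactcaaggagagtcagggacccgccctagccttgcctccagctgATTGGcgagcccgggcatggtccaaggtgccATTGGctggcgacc
Insig1, chr5:28071262-28071411: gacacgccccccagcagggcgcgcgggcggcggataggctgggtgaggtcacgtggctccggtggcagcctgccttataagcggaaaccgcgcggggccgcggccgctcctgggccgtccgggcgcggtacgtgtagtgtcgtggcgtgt

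CACCCCAC was found in the window of Hmgcs1 at position -136 and in none of the other 4, and it occurred on either strand in 2.87% of 32851 promoter windows of the same length. ATTGG, the box read by NF-Y, occurred in 5 of the 5 windows and in 37.4% of all windows. In Insig1 it lay at position -216, before the stretch printed here. The GC box GGGCGG, read by Sp1, was also in 5 of the 5 windows and in 35.7% of all. TGGGAA, the core recognised by RBPJ, the DNA-binding partner of the Notch intracellular domains, occurred in the window of Hmgcs1 and in none of the other 4, against 25.6% of all windows. A match to these letters describes the window only.

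The values are log2 of the processed signal less the 75th percentile of the same array, so 0 is the level of a fairly bright probe. Between 57.0% and 62.0% of the spots on an array were well above background and 0 were saturated. The 9 probes of the 7 genes were well above background on all 11 arrays, and all 7 genes passed the filter on dim probes. Marker genes of hepatocytes had a mean log2 value between 8.25 and 8.53 on every array. As a check on the vectors, 6 Notch targets were tested, of which 4 were higher than GFP in NICD1, 5 in NICD2 and 5 in NICD1&2. Over all genes tested, 50.5%, 55.1% and 66.6% were higher, so these counts alone say little. Hes1, a transcriptional repressor induced by Notch signalling, had a log2 change against GFP of 1.64 in NICD2 (limma adjusted p = 0.42), 1.36 in NICD1&2 (0.28) and -0.03 in NICD1 (0.99). Spp1, which encodes osteopontin, had log2 changes of 1.71, 1.81 and 2.23 in NICD1, NICD2 and NICD1&2 (limma adjusted p = 0.099, 0.028 and 0.011). Nrarp, a feedback inhibitor of Notch signalling, was not well above background on any GFP array and was on 2 of 3 NICD1 arrays and on all arrays of the other NICD groups. Its level was at least 4.65-fold higher than GFP in NICD2 and at least 7.07-fold in NICD1&2, with the GFP arrays set to the lowest signal well above background. The same figure in NICD1, where not all arrays were well above background, was 1.29-fold. Its limma adjusted p was 0.84 in NICD1, 0.10 in NICD2 and 0.072 in NICD1&2. Heyl, another target, had changes of -0.22, -0.43 and -0.64 (adjusted p = 0.93, 0.82 and 0.32). The single probes of Notch1 and Notch2 gave no clear sign of the vectors. Notch1 measured 0.56 to 0.95 in NICD1 against 0.30 to 0.69 in GFP, and Notch2 measured 1.85 to 2.06 in NICD2 against 1.66 to 1.86 in GFP. In NICD1&2, with both vectors, Notch1 measured 1.1 and 0.32 and Notch2 1.77 and 1.74, and in NICD1, without the NICD2 vector, Notch2 measured 1.97 to 2.10. Whether these probes lie in the part that the vectors carry was not known.

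Mean expression of all 7 genes was lower than in GFP in each NICD group, but by small amounts. The median log2 change of the 7 genes was -0.26 in NICD1, -0.32 in NICD2 and -0.40 in NICD1&2, where the median over the 16633 genes tested was 0.00, 0.02 and 0.12. None of the 7 was called in any of these comparisons by limma at an adjusted p under 0.05, and 1 of 7 had an unadjusted p under 0.05 in each, where 2.52%, 3.06% and 4.62% of all probes were lower with such a p. None met the study's definition of an altered gene, a P under 0.15 with a fold change over 1.8. Here P was the unadjusted limma p. The study did not say which test gave its P or whether it was adjusted, so its own shares may differ. Over the 36055 probes tested, 2.22% met that definition in NICD1, 1.98% in NICD2 and 6.22% in NICD1&2, and 0.00832%, 0.0527% and 0.0915% had an adjusted p under 0.05. A log2 change below 0 was seen in 47.1%, 45.8% and 35% of all probes. The 3 comparisons share the GFP arrays, so the repeated direction is not 3 independent observations. Most of the 7 genes also varied together over the arrays, so they are not independent of each other. In the bulk RNA, fewer cells that express a gene and less RNA per cell cannot be told apart. Another scaling changed the background: with quantile normalization the median over all probes in NICD1&2 was 0.01 in place of 0.12, and the median of the 7 genes was then -0.47. With 1 array left out, the median of the 7 genes in NICD1 lay between -0.44 and -0.10.

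**Figure D1:**
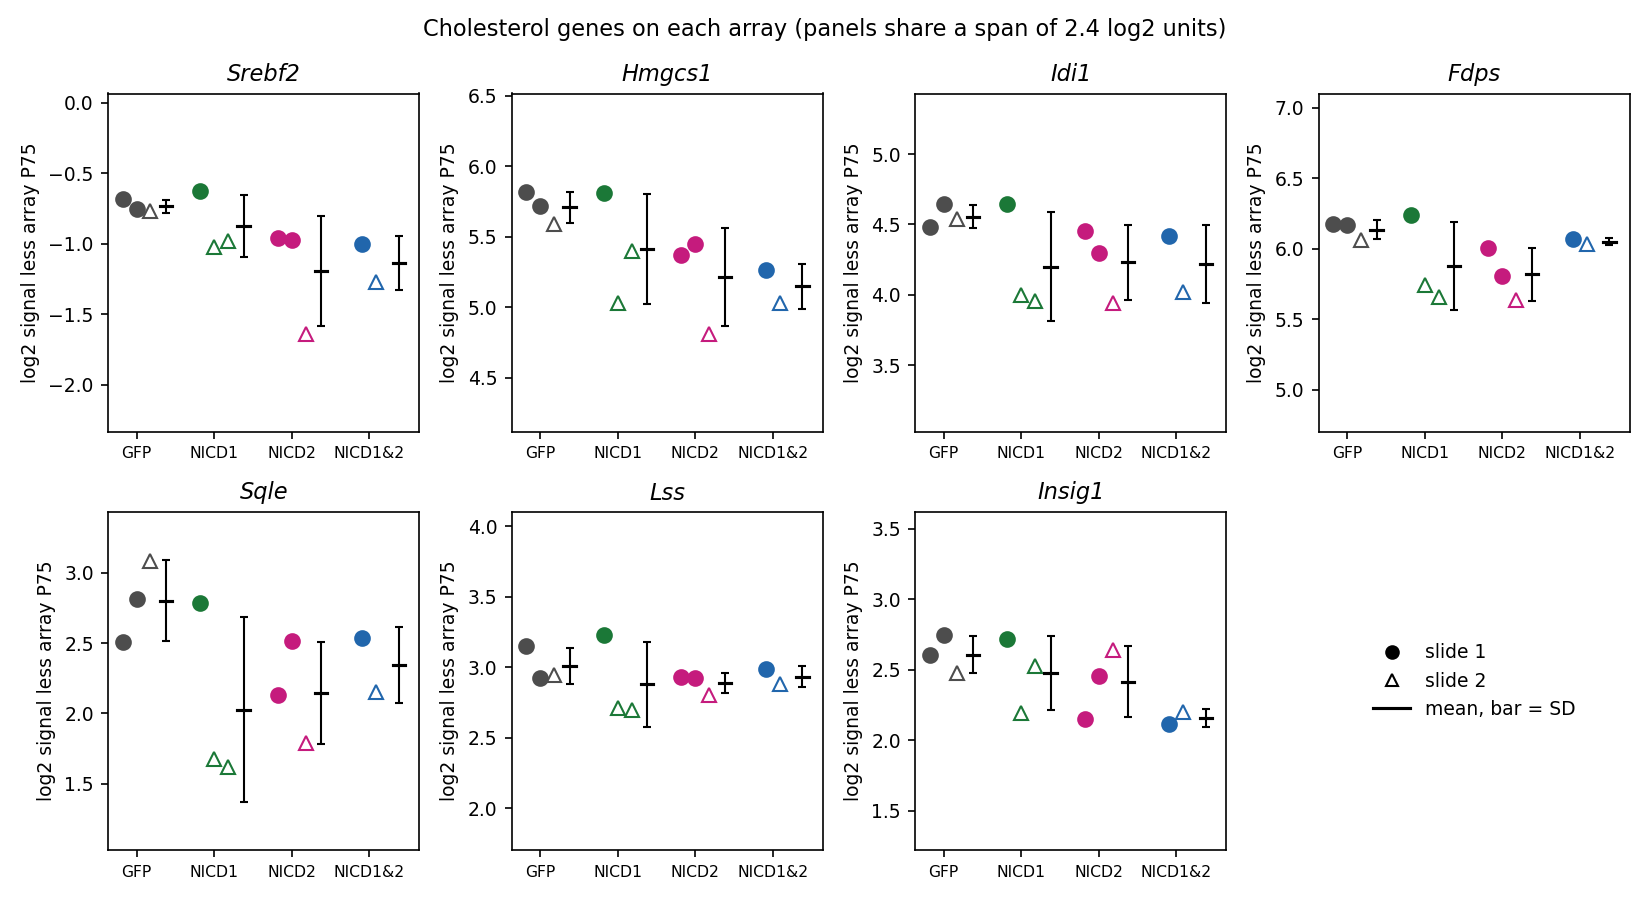
Each panel shows the log2 signal less the array's 75th percentile (P75) of 1 gene on each of the 11 arrays, by group, with filled circles for slide 1, open triangles for slide 2 and the group mean with its SD beside them. The first NICD1 array sits with the GFP arrays in every panel, while the other NICD1 arrays sit lower for most genes.

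Srebf2, the SREBP-2 gene (chr15:82147269-82205379), had the lowest signal of the 7 on these arrays, which is a property of the probes as much as of the RNA. Its log2 values were -0.68, -0.75 and -0.77 on the GFP arrays and -0.62, -1.02 and -0.98 on the NICD1 arrays. They were -0.96, -0.97 and -1.64 on the NICD2 arrays and -1.004 and -1.27 on the NICD1&2 arrays. All 5 arrays with the NICD2 vector thus lay below all 3 GFP arrays, and NICD1 overlapped GFP through its first array. The log2 change was -0.46 ± 0.20 (SE) in NICD2 (95% interval -0.90 to -0.01, limma adjusted p = 0.72), a ratio of 0.729, and -0.40 ± 0.22 in NICD1&2 (adjusted p = 0.40). In NICD1 it was -0.14 ± 0.20 (adjusted p = 0.94). The NICD2 array with the number 3, on slide 2, was the lowest of the 11, and without it the NICD2 change was -0.23. The NICD1 change was -0.27 without NICD1 1 and -0.07 without NICD1 2.

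Insig1, the sterol-regulated retention protein (chr5:28071412-28078662), had values of 2.60, 2.74 and 2.48 in GFP. It measured 2.71, 2.20 and 2.53 in NICD1, 2.15, 2.46 and 2.64 in NICD2, and 2.11 and 2.20 in NICD1&2. Below the lowest GFP array lay 1 of 3 arrays in NICD1, 2 of 3 in NICD2 and 2 of 2 in NICD1&2. The change there was -0.45 ± 0.19 (95% interval -0.87 to -0.03, limma adjusted p = 0.32), against -0.13 ± 0.17 in NICD1 and -0.19 ± 0.17 in NICD2 (adjusted p = 0.94 and 0.93). Without the second NICD1 array the NICD1 change was 0.012, and without the first it was -0.25. The NICD2 change was -0.30 without NICD2 3 and -0.06 without NICD2 1. On NICD2 array 3, where Srebf2 and Hmgcs1 were at their lowest, Insig1 was within the range of GFP.

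Hmgcs1, the cytosolic HMG-CoA synthase (chr13:119690351-119708260), measured 5.82, 5.71 and 5.59 in GFP and 5.81, 5.03 and 5.40 in NICD1. It measured 5.37, 5.45 and 4.81 in NICD2 and 5.26 and 5.03 in NICD1&2. The arrays of NICD2 and NICD1&2 lay below all GFP arrays. Its change was the largest of the 7 genes in NICD1&2, -0.56 ± 0.25 (limma adjusted p = 0.34), a ratio of 0.678. It was -0.50 ± 0.22 in NICD2 (adjusted p = 0.74) and -0.30 ± 0.22 in NICD1 (adjusted p = 0.92). Single arrays weighed on both: the change in NICD2 was -0.30 without NICD2 3, and the change in NICD1 was -0.10 without NICD1 2 and -0.49 without NICD1 1.

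Idi1, which isomerises isopentenyl diphosphate (chr13:8885606-8892396), measured 4.48, 4.64 and 4.54 in GFP, 4.65, 3.9975 and 3.96 in NICD1, 4.46, 4.30 and 3.94 in NICD2, and 4.42 and 4.02 in NICD1&2. Its changes were -0.36 ± 0.21, -0.32 ± 0.21 and -0.34 ± 0.24 (limma adjusted p = 0.91, 0.86 and 0.49). They moved with single arrays, to -0.58 in NICD1 without NICD1 1 and to -0.23 without NICD1 3, to -0.18 in NICD2 without NICD2 3, and to -0.53 or -0.14 in NICD1&2 with only 1 of its arrays. The NICD2 and NICD1&2 arrays did not overlap GFP, though the first NICD2 array missed the lowest GFP array by only a little. Fdps, farnesyl diphosphate synthase (chr3:89093588-89101967), measured 6.18, 6.17 and 6.06 in GFP, 6.24, 5.74 and 5.66 in NICD1, 6.01, 5.81 and 5.64 in NICD2, and 6.07 and 6.03 in NICD1&2. It lay below GFP on every NICD2 array and overlapped GFP in NICD1&2. The changes were -0.26 ± 0.16 in NICD1, -0.32 ± 0.16 in NICD2 and -0.09 ± 0.18 in NICD1&2 (limma adjusted p = 0.91, 0.78 and 0.82). In NICD1 the change was -0.44 without NICD1 1 and -0.15 without NICD1 3.

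Sqle, squalene epoxidase (chr15:59315092-59331193), had the widest spread of the 7 genes. It measured 2.51, 2.81 and 3.08 in GFP, 2.78, 1.68 and 1.62 in NICD1, 2.13, 2.51 and 1.79 in NICD2, and 2.53 and 2.15 in NICD1&2. The first GFP array was low and the first NICD1 array high, so no NICD group lay clear of GFP. Its changes were the largest of the 7 in NICD1, -0.77 ± 0.33 (95% interval -1.51 to -0.03, limma adjusted p = 0.89), a ratio of 0.585, and in NICD2, -0.66 ± 0.33 (adjusted p = 0.78). In NICD1&2 the change was -0.46 ± 0.36 (adjusted p = 0.54), and it was -0.65 without NICD1&2 1 and -0.27 without NICD1&2 2. Without the first NICD1 array the change in NICD1 was -1.15, and Sqle then met the study's definition.

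Lss, lanosterol synthase (chr10:76531565-76557139), was read by 3 probes. The brightest measured 3.15, 2.92 and 2.95 in GFP, 3.23, 2.71 and 2.70 in NICD1, 2.93, 2.93 and 2.80 in NICD2, and 2.99 and 2.88 in NICD1&2. All 3 NICD groups overlapped GFP, and the changes were -0.13 ± 0.15, -0.12 ± 0.15 and -0.07 ± 0.17 (limma adjusted p = 0.93, 0.96 and 0.83). With 1 array left out these ranged from -0.30 (without NICD1 1) to -0.04 (without NICD1 3) in NICD1, from -0.16 (without GFP 2) to -0.05 (without GFP 1) in NICD2, and from -0.13 (without NICD1&2 1) to -0.0014 (without GFP 1) in NICD1&2. The other 2 Lss probes gave changes from -0.31 to -0.06, with the same sign in every NICD group.

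**Figure D2:**
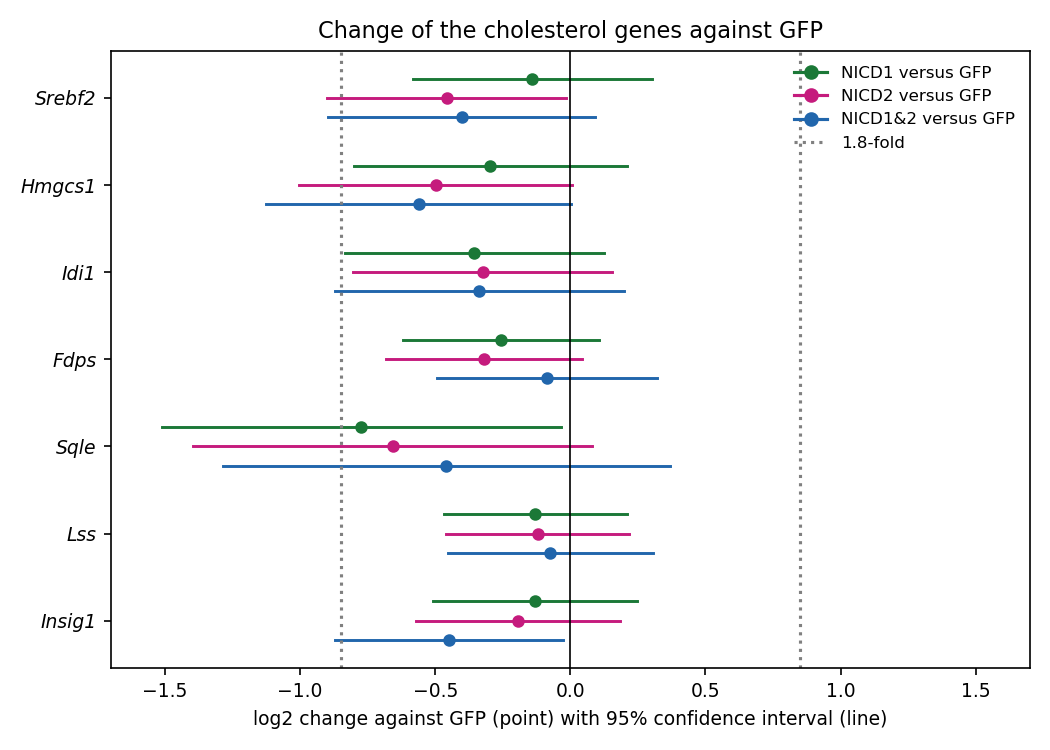
Points give the log2 change of each gene against GFP and lines its 95% confidence interval from the limma fit, for NICD1, NICD2 and NICD1&2, with dotted lines at 1.8-fold. All 21 points lie below 0, and the intervals of 3 of them, Sqle in NICD1, Srebf2 in NICD2 and Insig1 in NICD1&2, do not reach 0.

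Counted gene by gene, every array lay below every GFP array for 0 of the 7 genes in NICD1, 4 of 7 in NICD2 and 4 of 7 in NICD1&2. The same was true of 5.44%, 5.71% and 10.5% of all probes tested. For these single genes the exact two-sided permutation test gave p = 0.1, the smallest value that 3 arrays against 3 or 2 against 3 allow. Srebf2, Hmgcs1 and Idi1 were in the count of both NICD2 and NICD1&2, with Fdps added in NICD2 and Insig1 in NICD1&2. Genes that vary together over the arrays, as most of the 7 did, are not independent in such a count.

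The NICD groups were then compared with each other. The median log2 change of the 7 genes was 0.06 for NICD1 against NICD2, 0.02 for NICD1&2 against NICD1 and 0.05 for NICD1&2 against NICD2, with changes on both sides of 0. None of the 7 genes was called in these comparisons by limma, at an adjusted p under 0.05 or by the study's definition, which 1.26%, 2.7% and 3.07% of the probes met. An adjusted p under 0.05 was found for 0.00277%, 0.0139% and 0.00277% of the probes. None of the 7 had an unadjusted p under 0.05, where 3.74%, 12.4% and 8.91% of the probes had one in either direction. The group means of Srebf2 ran from GFP (-0.74 ± 0.05, SD, n = 3) through NICD1 (-0.88 ± 0.22, n = 3) and NICD1&2 (-1.14 ± 0.19, n = 2) to NICD2 (-1.19 ± 0.39, n = 3), and the last 2 were within their spread. For Srebf2 the difference of NICD1 from NICD2 was 0.32, with a 95% interval from -0.13 to 0.76, which includes 0. With slide as a block it was 0.43, and Srebf2 was then the 1 gene of the 7 with an unadjusted p under 0.05 in this comparison, as were 2% of all probes in that direction (limma adjusted p = 0.996).

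The interaction asks whether both vectors together gave more or less than the sum of each alone. It was above 0 for 6 of the 7 genes, that is, the joint change was smaller than the sum, with a median of 0.23 where all genes had 0.08 and 41.7% of the probes lay below 0. Sqle met the study's definition, with an interaction of 0.97 ± 0.49 (limma adjusted p = 0.71), as did 3.83% of all probes. Of all probes, 0% had an adjusted p under 0.05 for the interaction, while 7.03% had an unadjusted p under 0.05 in either direction. Of the 7 genes, 0 had an unadjusted p under 0.05. The call of Sqle was lost without any one of GFP 3, NICD1 2, NICD1 3, NICD2 3 or NICD1&2 1.

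The arrays lay on a pair of slides, each of which held arrays of all 4 groups. Slide 1 held GFP 1 and 2, NICD1 1, NICD2 1 and 2, and NICD1&2 1, and slide 2 held GFP 3, NICD1 2 and 3, NICD2 3, and NICD1&2 2. With the group in the model, 7 of the 7 genes were lower on slide 2, with a median of -0.35 where all genes had 0.05 and 38.7% of the probes were lower. For 5 of them the unadjusted p was under 0.05, as for 4.1% of all probes in that direction, and none had an adjusted p under 0.05 (limma), nor did any probe. None met the study's definition, which 1.05% of the probes met. The difference was -0.41 ± 0.11 for Hmgcs1, -0.38 ± 0.11 for Idi1 and -0.35 ± 0.10 for Srebf2 (limma adjusted p = 0.43, 0.43 and 0.44), and -0.04 ± 0.14 for Insig1.

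Within the slides, the NICD1 group divided. On slide 1 the single NICD1 array was above the mean of the GFP arrays for all 7 genes, with a median of 0.08, and it was above all 3 GFP arrays for 4 of them. On slide 2 the mean of the NICD1 arrays was below the single GFP array for all 7, with a median of -0.36. NICD2 was below GFP on slide 1 for 7 of 7 genes, with a median of -0.27, and on slide 2 for 6 of 7, with a median of -0.60. NICD1&2 was below GFP for 7 of 7 genes on each slide, with medians of -0.15 and -0.50. GFP 3, on slide 2, lay near the other GFP arrays: its median over the 7 genes, relative to the GFP mean, was -0.06, where GFP 1 and 2 had 0.04 and 0.01. What the slides stand for in handling or in the mice was not given, and its part in the differences was not tested.

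With slide as a block in the fit, the median change of the 7 genes was -0.16 in NICD1, -0.32 in NICD2 and -0.34 in NICD1&2. None was called at an adjusted p under 0.05. The number with an unadjusted p under 0.05 and a lower mean was 0 of 7 in NICD1, 4 of 7 in NICD2 (Srebf2, Hmgcs1, Fdps and Idi1) and 2 of 7 in NICD1&2 (Hmgcs1 and Srebf2), where 2.69%, 3.39% and 4.8% of all probes had one. Without the block this number was 1 in each. Most of the 7 genes varied together over the arrays, so these are not counts of independent observations. The block takes the slide difference as equal in all groups, while GFP 3 lay near the other GFP arrays. For the interaction, 1 of 7, Fdps, had an unadjusted p under 0.05 with the block and 0 without it, where 5.58% of all probes had one above 0. The block left the changes in NICD2 as they were, since NICD2 and GFP were spread alike over the slides. In NICD1 it moved Srebf2 from -0.14 to -0.02, Hmgcs1 from -0.30 to -0.16, Idi1 from -0.36 to -0.23 and Lss from -0.13 to -0.06. In NICD1&2 it moved Fdps from -0.09 to -0.04 and Lss from -0.07 to -0.04.

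**Figure D3:**
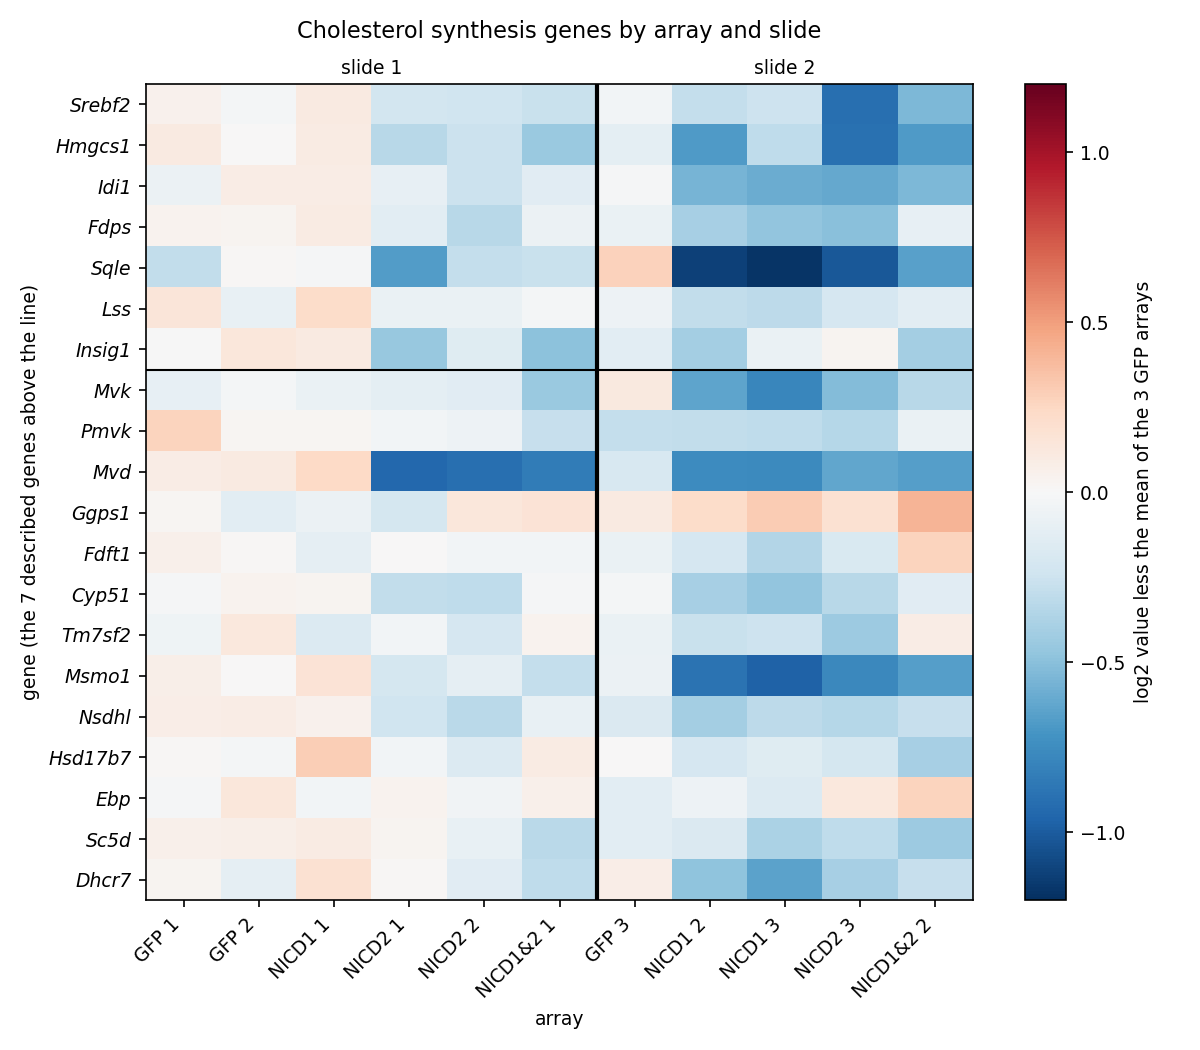
Colours give the log2 value of each gene on each array less the mean of the 3 GFP arrays, with arrays ordered by slide and a horizontal line between the 7 genes described and 13 other cholesterol synthesis genes. For the 7 genes the 4 arrays with an NICD vector on slide 2 are the bluest columns, with medians between -0.62 and -0.31. For the 13 others NICD1&2 2 has a mean log2 value of 3.937, against 3.925 on NICD2 2 and 3.935 on NICD1&2 1 of slide 1.

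The remaining enzymes of the pathway were mostly below GFP. Of 14 listed genes, 13 were tested (Acat2 had no named probe). In NICD1, 12 of the 13 were lower than GFP, in NICD2 11 and in NICD1&2 9, with medians of -0.22, -0.17 and -0.18, where 49.5%, 44.9% and 33.4% of all genes tested were lower. None met the study's definition or had an adjusted p under 0.05, and 1, 2 and 2 had an unadjusted p under 0.05 and lay below GFP, as did 3.02%, 3.52% and 4.88% of all genes tested. The lowest were Msmo1, a sterol C4 demethylase, at -0.56 ± 0.30 in NICD1, and Mvd, mevalonate diphosphate decarboxylase, at -0.82 ± 0.25 in NICD2 (limma adjusted p = 0.51) and -0.75 ± 0.28 in NICD1&2 (adjusted p = 0.29). Mvd measured 0.81, 0.83 and 0.53 in GFP and 0.96, -0.03 and -0.04 in NICD1. It measured -0.22, -0.18 and 0.10 in NICD2 and -0.12 and 0.06 in NICD1&2. All 5 arrays with the NICD2 vector were below GFP on both slides, and only the first NICD1 array was not. The highest gene of this list was Ggps1 in NICD1 and NICD1&2 (0.15 and 0.29), whose product leads to geranylgeranyl groups and not to sterols, and Ebp, a sterol isomerase, in NICD2 (0.04). On slide 2, 11 of the 13 were lower than on slide 1, with a median of -0.22. Within slide 1 the NICD1 array had a median of -0.01 over these 13 genes, and within slide 2 the NICD1 arrays had -0.19.

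Of 7 genes that process SREBP or answer to it, 4 were lower in each NICD group (49.5%, 44.9% and 33.4% of all genes tested), with medians of -0.06, -0.00 and -0.33, and none met the study's definition or had an adjusted p under 0.05. An unadjusted p under 0.05 with a lower mean was found for 0 of them in NICD1, 2 in NICD2 (Insig2 and Stard4) and 3 in NICD1&2 (Srebf1, Stard4 and Scap), against 3.02%, 3.52% and 4.88% of all genes. Stard4, a sterol carrier, had changes of -0.13, -0.37 and -0.41 (limma adjusted p = 0.92, 0.46 and 0.22), and Scap, the escort of SREBP, -0.06, -0.11 and -0.33 (0.95, 0.93 and 0.24). Stard4 and Scap were named after their values were seen. The lowest were Tmem97 in NICD1 (-0.19), Insig2, a second retention protein, in NICD2 (-0.46 ± 0.18, limma adjusted p = 0.67) and Srebf1, which encodes SREBP-1, in NICD1&2 (-0.51 ± 0.14, adjusted p = 0.19). The highest were Srebf1 in NICD1 (0.19), Mbtps2, a protease that releases SREBP, in NICD2 (0.09) and Mbtps1, the other such protease, in NICD1&2 (0.21). Srebf1 thus had its highest mean in NICD1 and its lowest in NICD1&2, where its values of 6.04 and 6.24 lay below the 3 GFP values of 6.55, 6.65 and 6.77.

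Of 15 genes of sterol uptake, efflux, esterification and bile acid synthesis, 11 were higher than GFP in NICD1, 11 in NICD2 and 9 in NICD1&2, with medians of 0.07, 0.09 and 0.06. Over all genes tested, 50.5%, 55.1% and 66.6% were higher, so the count in NICD1&2 was under that of all genes. None of the 15 met the study's definition. The highest was Cyp7a1, the rate-limiting enzyme of bile acid synthesis, at 0.61 ± 0.20 in NICD1 and 0.84 ± 0.20 in NICD2 (limma adjusted p = 0.80 and 0.31). In NICD1&2 the highest was Scarb1, the receptor for high-density lipoprotein, at 0.49 ± 0.13 (adjusted p = 0.19), while Cyp7a1 was at 0.30 ± 0.22. Cyp7a1 measured 2.23, 2.50 and 2.95 in GFP, 3.36, 2.98 and 3.17 in NICD1, 3.46, 3.15 and 3.59 in NICD2, and 2.93 and 2.79 in NICD1&2. All NICD1 and NICD2 arrays were above GFP, narrowly so for the second NICD1 array, and NICD1&2 was within GFP. Cyp8b1, the sterol 12-hydroxylase of the same route, was the lowest of the list in all 3 groups, at -0.61 ± 0.27, -0.36 ± 0.27 and -0.69 ± 0.30 (limma adjusted p = 0.90, 0.89 and 0.33).

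Fatty acid synthesis, which is driven mainly by SREBP-1, had medians of -0.08, -0.05 and -0.09 over 10 genes. In each NICD group 6 of them were lower, against 49.5%, 44.9% and 33.4% of all genes tested, and none met the study's definition. Acacb, the mitochondrial acetyl-CoA carboxylase, was the lowest in each (-0.43, -0.57 and -0.53), and Acaca, its cytosolic counterpart, the highest (0.22, 0.32 and 0.45). The median of this list was nearer 0 than that of the 7 cholesterol genes in every NICD group, and that difference was not tested.

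The levels of the 6 other genes were set against Srebf2 over the 11 arrays, since its product regulates them. The closest was Hmgcs1, with Pearson r = 0.93 and Spearman rho = 0.95 (permutation p = 1e-05, the smallest that 100000 resamples give, and 3e-05, adjusted over 6 relations 6e-05 and 0.00018). Idi1 had r = 0.79 and rho = 0.89 (permutation p = 0.00063 and 0.0005, adjusted 0.00189 and 0.0015). Fdps had r = 0.69 and rho = 0.77 (permutation p = 0.0129 and 0.00774, adjusted 0.0258 and 0.0155), and Sqle r = 0.64 and rho = 0.61 (permutation p = 0.0264 and 0.0508, adjusted 0.0396 and 0.061). Lss had r = 0.60 and rho = 0.70 (permutation p = 0.0529 and 0.0199, adjusted 0.0635 and 0.0299). Insig1 was the exception, with r = 0.25 and rho = 0.45 (permutation p = 0.471 and 0.165, the same after adjustment).

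These relations contain the group and slide differences described above. On values centred in each group, with arrays permuted within groups, r was 0.91 for Hmgcs1 (permutation p = 0.00449, adjusted 0.0269), 0.76 for Fdps and 0.67 for Lss (adjusted 0.0322 for both), 0.85 for Idi1 and 0.71 for Sqle (adjusted 0.0673 and 0.0675), and -0.19 for Insig1. Centring by group leaves the slide difference in these values. With both the group and the slide taken out by a linear model, r was 0.70 for Hmgcs1, 0.54 for Idi1, 0.53 for Sqle, 0.36 for Fdps, 0.18 for Lss and -0.50 for Insig1, given here as a description with no p. Over the 6 arrays of slide 1, r lay between 0.61 for Sqle and 0.97 for Hmgcs1, with Insig1 at 0.85, and slide 2 held 5 arrays, too few for a value. Without the 2 arrays farthest from the median of Srebf2 (NICD1 1 and NICD2 3), r was 0.92 for Hmgcs1, 0.74 for Idi1, 0.56 for Sqle, 0.51 for Lss and 0.43 for Fdps, and it was 0.71 for Insig1. Of these, NICD2 3 lowered the r of Insig1, which was 0.77 without that array alone and 0.12 without NICD1 1 alone. The r of Fdps was 0.56 without NICD2 3 and 0.63 without NICD1 1.

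**Figure D4:**
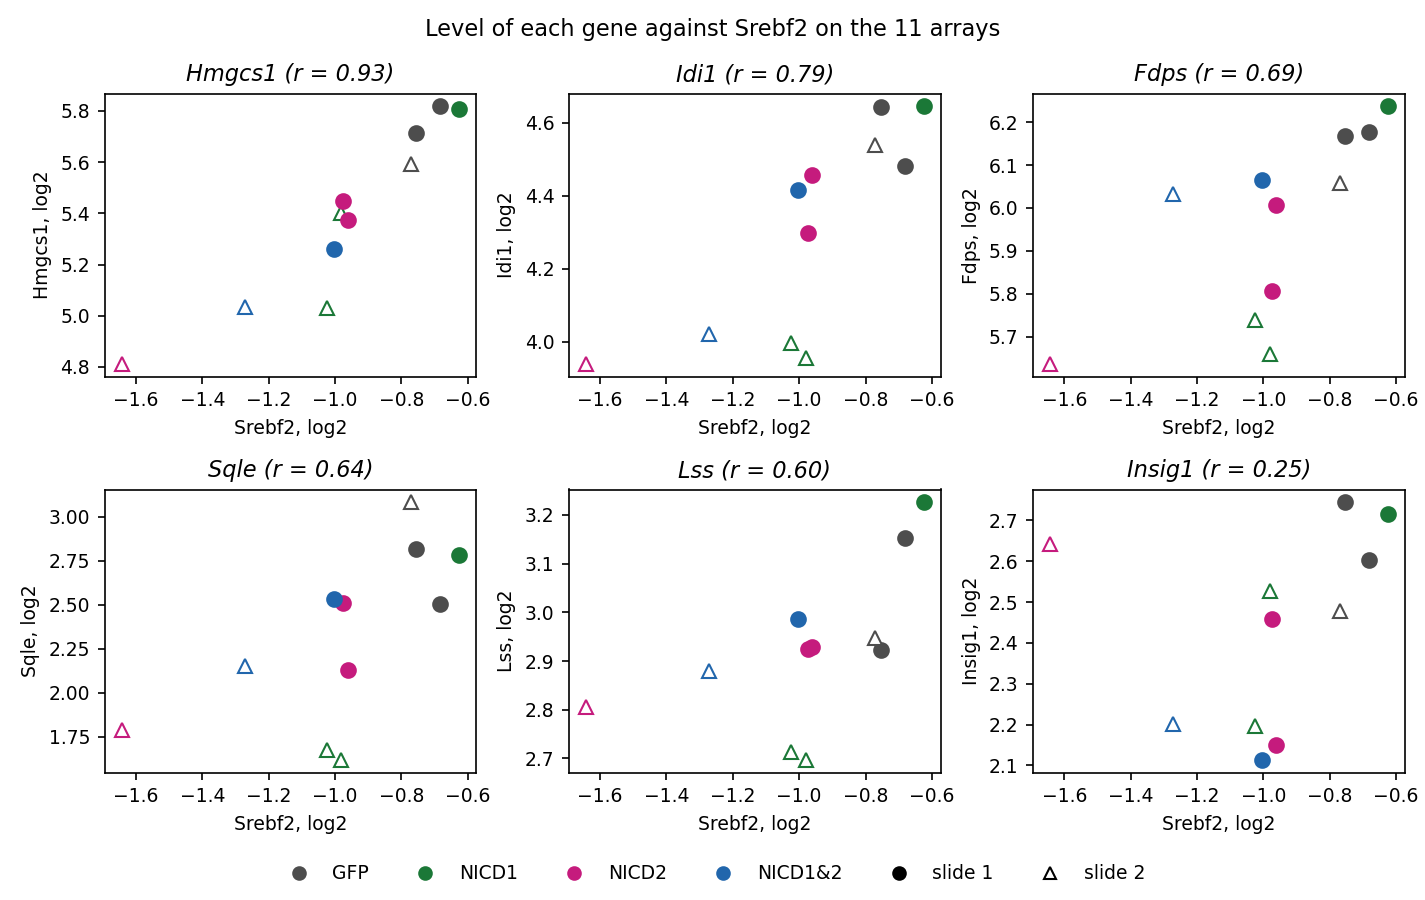
Each panel plots the log2 value of 1 gene against that of Srebf2 on the 11 arrays, coloured by group, with filled circles for slide 1 and open triangles for slide 2, and Pearson's r in its title. Hmgcs1 follows Srebf2 most closely (r = 0.93), and NICD2 3, at the far left, is low in the other panels and high for Insig1.

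The mean standardized profile of the 7 genes was compared with 16626 other genes over the 11 arrays. The 8 most like it were 3110045C21Rik (r = 0.94), Tmem209 (0.94), Msmo1 (0.94), Arhgef19 (0.92), Sae1 (0.91), Csf2rb (0.90), Mfsd13a (0.90) and Nsdhl (0.90). Of these, Msmo1 and Nsdhl, both of sterol C4 demethylation, were on the list of other cholesterol synthesis genes. Msmo1 measured 6.28, 6.22 and 6.14 in GFP, 6.38, 5.33 and 5.25 in NICD1, 6.01, 6.11 and 5.44 in NICD2, and 5.93 and 5.55 in NICD1&2. It was low on all 4 NICD arrays of slide 2, with a slide difference of -0.56 ± 0.15 (limma adjusted p = 0.42).

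Markers of other cells of the liver were read beside these results. The mean of 8 hepatocyte markers ranged from 8.32 to 8.50 in GFP, 8.25 to 8.46 in NICD1, 8.43 to 8.51 in NICD2 and was 8.53 on both NICD1&2 arrays. Of 9 Kupffer and myeloid markers, 9 were lower in NICD1, with a median of -0.28, 6 in NICD2 (-0.23) and 6 in NICD1&2 (-0.03), and their mean ranged from 1.28 to 1.73 in GFP and from 1.18 to 1.38 in NICD1. Over all genes tested, 49.5%, 44.9% and 33.4% were lower. Of 6 bile duct markers, 5, 5 and 6 were higher, with medians of 0.32, 0.32 and 0.47, and their mean ranged from -3.36 to -3.07 in GFP and from -3.00 to -2.60 over the NICD arrays. The share higher over all genes tested was 50.5%, 55.1% and 66.6%. Of the other marker lists, stellate cell genes had medians of 0.10, 0.13 and 0.05 over 7 genes in NICD1, NICD2 and NICD1&2, endothelial genes -0.03, -0.00 and -0.03 over 6, lymphocyte genes -0.21, -0.11 and -0.02 over 8, and red blood cell genes -0.13, -0.06 and 0.23 over 4. Of the marker genes, Lyve1 of the endothelial list met the study's definition in NICD2 and NICD1&2 (0.86 and 0.93). Itgam of the myeloid list (-0.98) and Sox9 of the bile duct list (1.16) met it in NICD1&2. Cd79a, of B cells, was lower and met it in NICD1 (-0.93), though it was well above background on only 7 of all 11 arrays. Cftr of the bile duct list was so on 3 arrays, and Cd8a of the lymphocyte list and Adipoq of the adipose list on 2. Pancreatic genes had medians of -0.25, -0.13 and 0.01 over 3, and adipose and adrenal genes 0.01, 0.04 and 0.03 over 3. The part of these cells in the values of the 7 genes was not tested.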

How the data were processed

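Labelled RNA of 11 liver samples was measured on Agilent arrays. The authors' Feature Extraction software (11.5.1.1) subtracted background and spatial trends, and the deposited processed signals are intensities not yet normalized between arrays. The deposited value table holds log2 values less the array's 75th percentile. Its median difference from log2 of the processed signals treated in the same way was 0.0089 or less on each array. The number of arrays limits the precision.

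Spots of a probe were averaged, 3671 control spots per array were left out, and a probe was kept if 2 or more of 11 arrays had it well above background (36055 of 56605, of which 24039 had a gene name). One linear model with the 4 groups as terms was fitted to all arrays and probes with limma 3.58.1 in R 4.3.3, with Benjamini-Hochberg adjustment over all probes, and was tested on simulated data. Of several probes for a gene, the one with the highest mean stood for it. Correlations and exact tests used Python 3.11.15 and scipy 1.17.1. Slides were read from the file headers. Named beside the 7 genes were list genes that met the study's definition against GFP or had the highest or lowest change of a pathway list, with a few from marker lists, genes whose values bear on a result, and the 8 genes most like the 7. Some genes of these routes are not reported here. The genes, lists and tests were chosen with earlier results of these data known. The values within slides, the difference between slides and the correlations with slide removed were added after seeing the data. The alternatives tried are given with their effect in the closing section.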

Additional observations from a re-analysis of the deposited data

How the results depend on the processing

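Each of 21 results, 7 genes against GFP in 3 groups, was recomputed under 24 alternatives: quantile normalization, another 75th percentile, the deposited table, normexp with quantile normalization, 2 filters on dim probes, the compared groups alone, an unmoderated model, array weights, replicate and slide blocks, the mean of a gene's probes, a stricter definition and each array left out. Of 504 values, 256 equalled the value as reported (within 1e-09), since a filter, another definition or an array of a group not compared leaves a gene's mean difference as it is. Of the 248 that moved, 247 were below 0. None of the 504 had an adjusted p under 0.05. The exception was Insig1 in NICD1, 0.012 without NICD1 2, with a range over the arrays left out from -0.25 to 0.012. The median of the 7 genes lay between -0.44 and -0.10 in NICD1, -0.44 and -0.23 in NICD2, and -0.53 and -0.27 in NICD1&2 with 1 array left out, and between -0.26 and -0.16, -0.37 and -0.32, and -0.48 and -0.34 under the others.

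In NICD1, 1 of the 7 genes met the study's definition, where 0 did otherwise, with array weights, without the first GFP array and without the first NICD1 array, so leaving out arrays gave 0 to 1. With 1 array left out the median ranged from -0.12 to 0.13 for NICD1 against NICD2, from -0.18 to 0.23 for NICD1&2 against NICD1, from -0.15 to 0.19 for NICD1&2 against NICD2 and from 0.12 to 0.43 for the interaction, which 0 to 1 genes met by the study's definition, and 0 met it with P under 0.05 and a fold change over 2. The cause was not tested.

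The replicate numbers showed no clear pairing of the arrays. Over 15 pairs with the same number the residuals correlated between -0.41 and 0.17, with a median of 0.04 and 6 above 0.1. Over 30 pairs with another number they correlated between -0.29 and 0.46, with a median of 0.01 and 7 above 0.1. Residuals about means of 2 or 3 arrays can hardly settle this. With the number as a replicate block the medians were -0.26 in NICD1, -0.32 in NICD2 and -0.43 in NICD1&2, and no call changed. The number of arrays, 2 or 3 a group, limits what could be called.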

Other observations

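Genes of the circadian clock and its output were also listed, since cholesterol synthesis in the liver follows the time of day. Of 10 tested, 5 were higher than GFP in NICD1, 8 in NICD2 and 7 in NICD1&2, with medians of 0.00, 0.19 and 0.23, and 0 had an adjusted p under 0.05 (limma). An unadjusted p under 0.05 with a higher mean was found for 0, 4 and 2 of them, where 2.83%, 4.20% and 11.9% of all genes tested had one, and 50.5%, 55.1% and 66.6% of all genes were higher. Ciart, a repressor of the clock, met the study's definition in NICD2 (0.87 ± 0.18, limma adjusted p = 0.23) and in NICD1&2 (0.89 ± 0.20, adjusted p = 0.15), and its change in NICD1 was 0.02. It measured -0.06, 0.05 and 0.43 in GFP, -0.17, 0.39 and 0.24 in NICD1, 1.15, 0.84 and 1.04 in NICD2, and 1.08 and 0.98 in NICD1&2, so that all 5 arrays with the NICD2 vector lay above the others. Per1, a core clock gene, met the definition in NICD2 (0.86 ± 0.30, adjusted p = 0.60), with GFP values spread from 2.81 to 4.17. The lowest of the list were Arntl in NICD1 and NICD2 (-0.35 and -0.61) and Nr1d1 in NICD1&2 (-0.55). The part of the time of day in the values of the cholesterol genes was not tested.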
